A study of Homo sapiens with 24 samples.

Results

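The 10 genes described here are regulators and markers of epithelial-mesenchymal transition (EMT), out of 58735 genes in each count table. They are the transcription factors TWIST1, SNAI1, SNAI2, ZEB1 and ZEB2, the epithelial genes CDH1 and EPCAM, and the mesenchymal genes CDH2, VIM and FN1, and each symbol matched 1 gene identifier. The group was chosen by a measured value, the level of TWIST1 in UHRF1-AID/DNMT1-AID cells before auxin against that in WT cells. For this reason that contrast is described with no test for any of the 10 genes, and TWIST1 is given no test in a comparison that uses those libraries. The cells were HCT116, a human colorectal carcinoma line, here with a doxycycline-inducible OsTIR1, the receptor through which auxin directs a protein carrying an auxin-inducible degron (AID) to degradation. The 4 lines were WT without a degron, UHRF1-AID and DNMT1-AID with 1 degron each, and UHRF1-AID/DNMT1-AID with both, called the compound line, with the degron on the endogenous genes, at the C-terminus of UHRF1 with mClover and at the N-terminus of DNMT1 with mRuby2. Each line was sequenced before auxin (day 0) and after 4 days of auxin (day 4), in 8 groups of 3 libraries. Auxin followed a first day with doxycycline, which induces OsTIR1, and auxinole, which blocks it, and was given with doxycycline. Which of these agents the day 0 cells had received is not given in the labels. WT cells of day 4 received the same agents, so comparisons of lines at day 4 hold the agents constant while comparisons of days do not. The study's methods describe the replicates as biological and the tagged lines as made from 3 clones each, while the labels do not tie a library to a clone.

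In EMT, epithelial cells give up junctions and polarity and take on an elongated, motile state with intermediate filaments of vimentin and a fibronectin-rich matrix. TWIST1 is a basic helix-loop-helix factor, SNAI1 and SNAI2 are zinc finger repressors, and ZEB1 and ZEB2 are zinc finger repressors with a homeodomain, and all bind E-box sequences such as those of the CDH1 promoter. CDH1 encodes E-cadherin of the adherens junction, EPCAM a surface adhesion protein of epithelia, CDH2 N-cadherin, VIM vimentin and FN1 fibronectin. UHRF1 recruits the methyltransferase DNMT1 to newly replicated DNA, where DNMT1 copies CpG methylation to the new strand.

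At day 4, TWIST1 was higher than in WT cells in all 3 tagged lines, at 7.62 ± 0.962 CPM (read counts scaled to library size) in UHRF1-AID, 5.32 ± 0.501 in the DNMT1-AID line and 7.19 ± 0.645 in the compound line against 2.49 ± 0.513 in WT (mean ± SD, n = 3 libraries per group). VIM stood at 3.89 ± 2.2 CPM in UHRF1-AID cells and 7.0 ± 3.49 CPM in the compound line against 0.855 ± 0.338 CPM in WT. Only 2 of the 3 WT libraries reached the minimum of the filter on low counts for VIM, so it is left out of the counts below. The difference of UHRF1-AID cells did not pass without WT replicate 2 (adjusted p = 0.0669, edgeR). The epithelial gene CDH1 rose between day 0 and day 4 in the 3 tagged lines and was not lower than in WT by the test in any of them at day 4. EPCAM passed the test in no comparison, and ZEB2 and CDH2 had 4 counts or fewer in every one of the 24 libraries.

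The libraries held between 15824804 and 25073821 gene counts. The table headers placed the 12 libraries of day 0 and the 3 of UHRF1-AID cells at day 4 in one alignment folder and the other 9 libraries of day 4 in another, and counts on added ERCC control RNAs were found in those 9 alone, at 0.891% to 1.65%. In the comparisons of UHRF1-AID with WT or DNMT1-AID cells at day 4, and of the days in WT, DNMT1-AID and the compound line, folder and group cannot be told apart. The other comparisons of lines and the days of UHRF1-AID cells lie within 1 folder. In the change with day of UHRF1-AID cells minus that of WT, WT cells cross the folders and UHRF1-AID cells do not. That difference therefore cannot be told apart from the folder either. DNMT1-AID and the compound line cross the folders as WT does. Of 10 colon epithelial markers, 7 had at least 10 counts in all 24 libraries and the 10 summed to between 3954 and 8297 CPM, while VIL1 had at most 7 counts and LGALS4 at most 18. The 10 fibroblast markers summed to between 1.61 and 27.4 CPM, with COL1A2, COL3A1, PDGFRA, FAP and POSTN at 3 counts or fewer throughout. In bulk RNA, fewer cells that express a gene and less of its RNA per cell cannot be told apart.

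The hg38 annotation of the files places TWIST1 (ENSG00000122691), chromosome 7, 19020991 to 19117672 on the minus strand, SNAI1 (ENSG00000124216), chromosome 20, 49982999 to 49988886 on the plus strand, and ZEB1 (ENSG00000148516), chromosome 10, 31318495 to 31529814 on the plus strand. It places CDH1 (ENSG00000039068), chromosome 16, 68737225 to 68835548 on the plus strand, EPCAM (ENSG00000119888), chromosome 2, 47345158 to 47387601 on the plus strand, VIM (ENSG00000026025), chromosome 10, 17228259 to 17237593 on the plus strand, and FN1 (ENSG00000115414), chromosome 2, 215360440 to 215436172 on the minus strand. Counts are summed over the exons of a gene. Whether counting used strand was not stated in the sources used here, and exons of VIM share 641 bases with the antisense gene VIM-AS1 (0 to 34 counts per library) and exons of ZEB1 share 366 bases with ZEB1-AS1 (30 to 84 counts), so reads of these pairs cannot be told apart.

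RefSeq promoter windows, from 250 bases before to 50 bases after a transcript start (GRCh38.p14), were matched for 5 of the 10 genes, VIM, FN1, ZEB1, ZEB2 and CDH2. The window of VIM is shown because VIM had the largest fitted difference from WT of the 10 genes in the compound line at day 4. The window of SPARC, a secreted matrix protein, is shown because SPARC had 1 count in the 3 WT libraries of day 4 together and many in the tagged lines. Capitals mark each CG, the dinucleotide whose methylation DNMT1 copies.
VIM, chr10:17227991-17228290, plus strand: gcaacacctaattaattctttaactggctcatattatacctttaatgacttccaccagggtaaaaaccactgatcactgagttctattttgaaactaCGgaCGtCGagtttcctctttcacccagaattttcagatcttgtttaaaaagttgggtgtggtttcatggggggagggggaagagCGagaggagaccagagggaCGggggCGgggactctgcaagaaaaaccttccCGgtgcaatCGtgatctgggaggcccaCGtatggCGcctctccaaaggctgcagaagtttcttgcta
SPARC, chr5:151686866-151687165, minus strand: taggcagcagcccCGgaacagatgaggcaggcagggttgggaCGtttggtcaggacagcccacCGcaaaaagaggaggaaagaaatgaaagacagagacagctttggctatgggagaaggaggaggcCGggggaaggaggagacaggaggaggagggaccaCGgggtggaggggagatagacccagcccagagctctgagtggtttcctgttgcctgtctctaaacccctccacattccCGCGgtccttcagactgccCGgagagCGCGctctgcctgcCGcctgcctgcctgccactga
The VIM window holds 10 CG and the SPARC window 11, against a median of 14 and quartiles of 4 and 28 over 35116 RefSeq windows of 300 bases, and the FN1 window holds 38. The E-box letters CAGGTG, searched on both strands (CACCTG), occur in 2 of the 7 windows of ZEB1, in none of those of VIM, SPARC, FN1, ZEB2 and CDH2, and in 20.6% of all windows.

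Scaled by exon length, the levels of the 10 genes spanned several orders of magnitude. The mean over the 8 groups was 195.1 CPM per kb for EPCAM and 17.2 for CDH1, the 2 epithelial genes. The regulators SNAI1 and TWIST1 stood at 5.68 and 2.53 CPM per kb, VIM at 0.785, FN1 at 0.39 and ZEB1 at 0.139. SNAI2 stood at 0.0619, CDH2 at 0.00285 and ZEB2 at 0.000741 CPM per kb. CDH2 was at 0 counts in 21 libraries and ZEB2 in 17, with at most 4 and 3 counts in the others, and neither was tested.

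**Figure D1:**
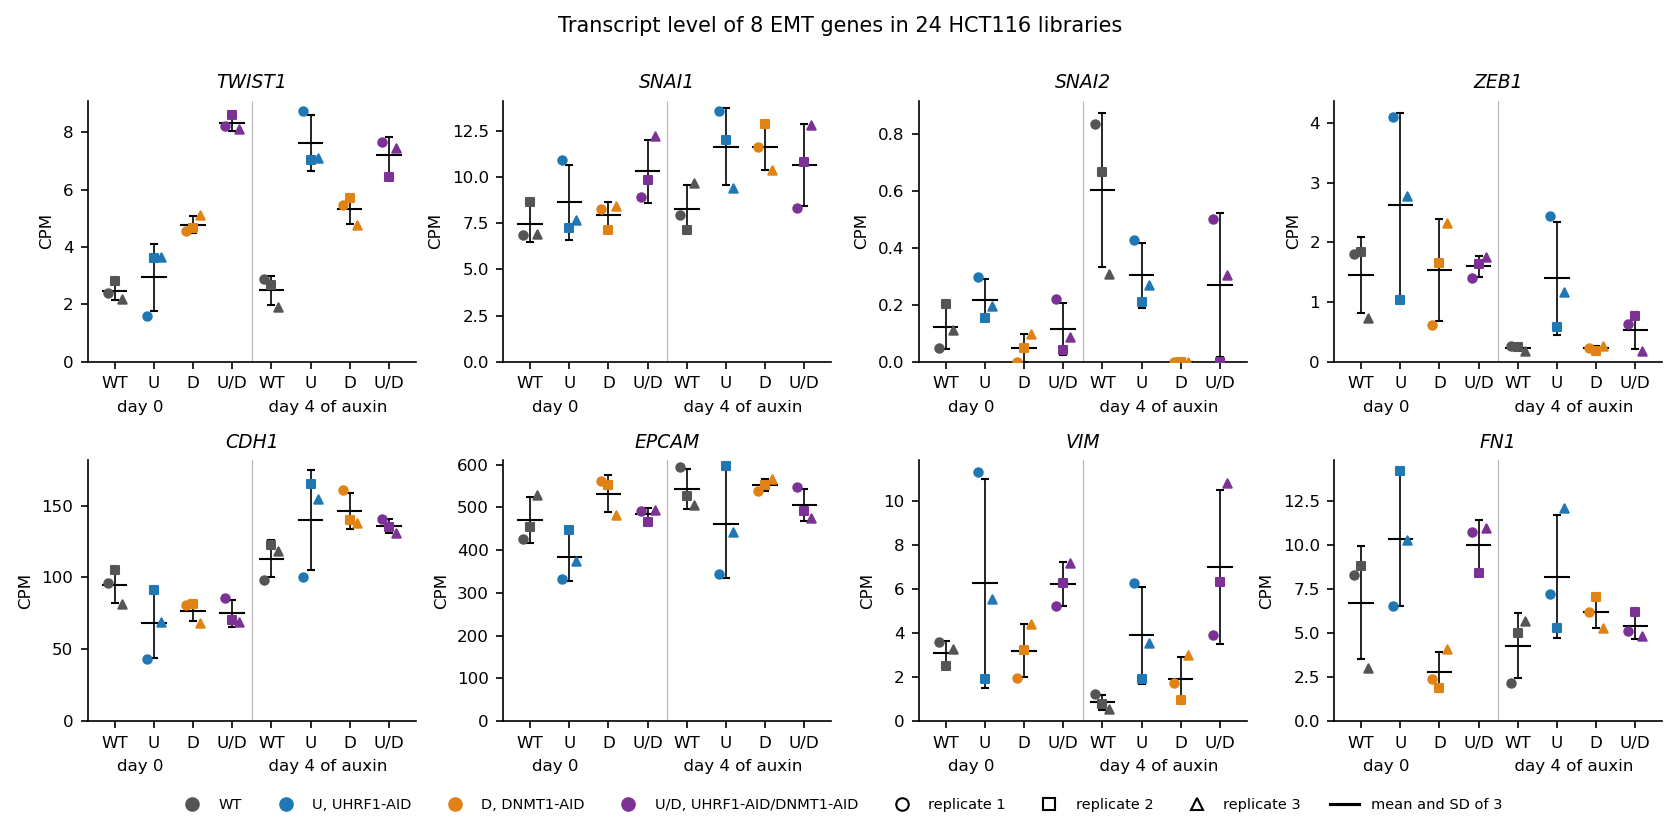
CPM of 8 of the genes (vertical axes, from 0) in each of 24 libraries by line and day (horizontal axis), with symbols for the replicate number and bars for the mean and SD of 3 libraries. TWIST1 lies between 6.46 and 8.74 CPM in the libraries of UHRF1-AID cells and of the compound line at day 4 and between 1.91 and 2.89 CPM in the WT libraries, while EPCAM lies between 332.7 and 596.7 CPM throughout.

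A gene is said to rise or fall, or to be higher or lower, where the edgeR quasi-likelihood test gave an adjusted p under 0.05 (Benjamini-Hochberg over all genes that passed the filter on low counts). Before auxin, 0 of 6 genes differed between UHRF1-AID and WT cells, where 0% of all genes did and 0% by over 2-fold. None of the 6 had an unadjusted p under 0.05 and DESeq2 called none. The libraries of none of the 7 genes that passed the filter stood apart from WT without overlap, as those of 11.1% of all genes did. In DNMT1-AID cells 0 of 6 differed, where 0.00723% of all genes did, and 0.00723% by over 2-fold. There CDH1 and FN1 had an unadjusted p under 0.05 and DESeq2 called none. In the contrast behind the choice, the compound line against WT, 3.64% of all genes passed the test and 1.31% by over 2-fold.

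A gene could pass the filter on low counts through the libraries of 1 group alone and was then bound to be high there, so genes are counted here only where every library of each group compared reached the minimum of the filter. At day 4, 1 of 5 such genes was higher than in WT in UHRF1-AID cells (TWIST1, by over 2-fold), where 17.4% of all genes tested differed, 10.9% were higher and 6.99% differed by over 2-fold. In DNMT1-AID cells 2 of 5 were higher (TWIST1 and CDH1), TWIST1 by over 2-fold, where 7.95% of all genes differed, 5.02% were higher and 2.57% differed by over 2-fold. In the compound line 2 of 5 were higher (TWIST1 and CDH1), TWIST1 by over 2-fold, where the shares of all genes were 38.2%, 20.4% and 11.7%. ZEB1, tested in UHRF1-AID cells alone, reached the minimum in none of the WT libraries and VIM in 2 of them, so both are left out of these counts and their values are given below. The libraries stood apart from WT without overlap for TWIST1 in UHRF1-AID (37.7% of all genes), for TWIST1, SNAI1 and CDH1 in DNMT1-AID (29.7%) and for TWIST1 and CDH1 in the compound line (50.2%).

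**Figure D2:**
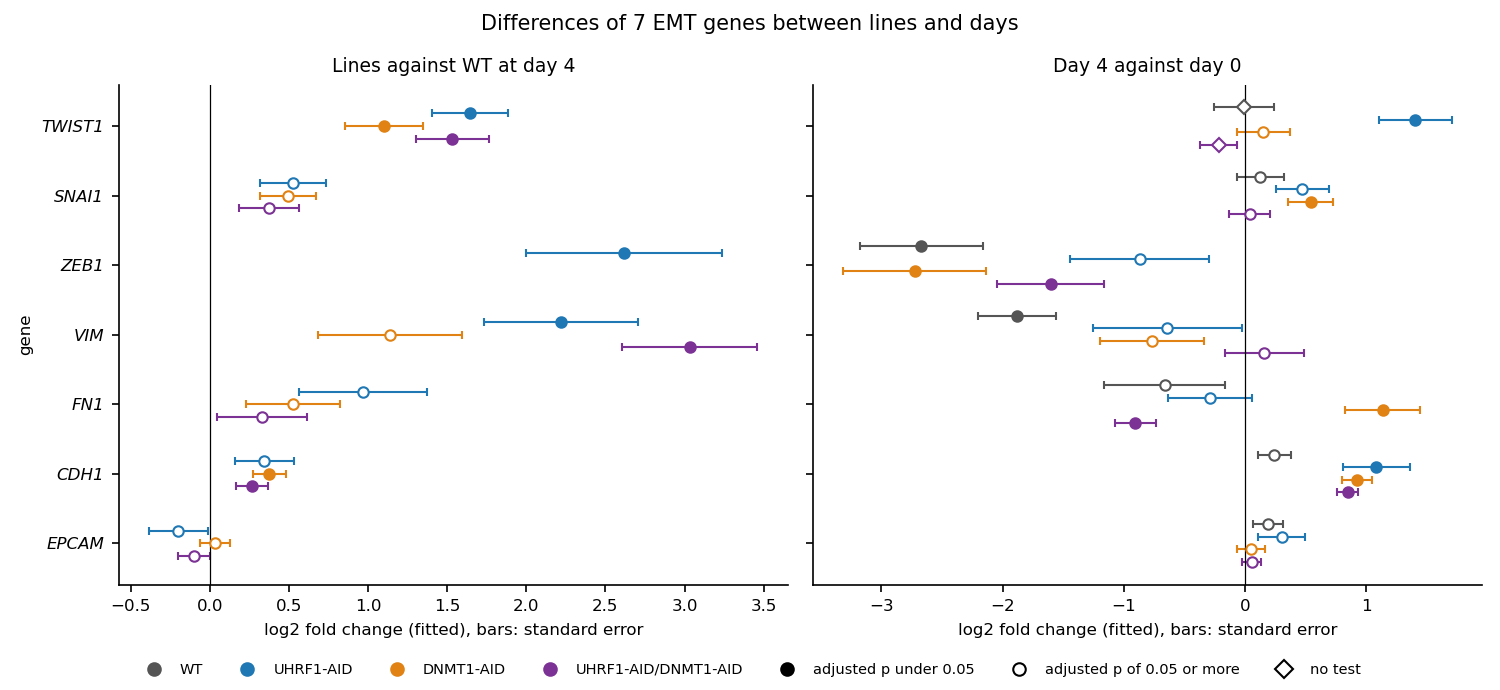
Fitted log2 fold change with its standard error (horizontal axes) of the genes that passed the filter on low counts, for the tagged lines against WT at day 4 (left) and day 4 against day 0 (right). Filled circles mark an adjusted p under 0.05, open circles a higher one and diamonds a contrast with no test. On the left the 8 filled circles, those of ZEB1 and VIM included, lie above 0, and on the right ZEB1 lies below 0 in all 4 lines, with the circle of UHRF1-AID open. For the filled circles of ZEB1 and VIM, not every library compared reached the minimum of the filter, and these tests are not taken as support.

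TWIST1, the gene whose level chose the group, was measured at 2.4, 2.81 and 2.18 CPM in the WT libraries of day 0 and at 8.21, 8.61 and 8.13 CPM in those of the compound line. These 3 libraries stood above every WT library, by a fitted log2 fold change of 1.75 ± 0.174 (SE), a description of the values used for the choice. SNAI1 and VIM did not overlap in that contrast either, as was so for 28.4% of all genes. DNMT1-AID libraries of day 0 held 4.55, 4.67 and 5.12 CPM of TWIST1 and also lay above WT (0.92 ± 0.211), 1 of the 7 genes without overlap in that line against 9.77% of all genes. In UHRF1-AID cells TWIST1 was at 1.6, 3.6 and 3.64 CPM and overlapped WT (0.27 ± 0.328).

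At day 4, in libraries that played no part in the choice, TWIST1 was at 2.89, 2.67 and 1.91 CPM in WT and at 8.73, 7.04 and 7.09 CPM in UHRF1-AID cells. All UHRF1-AID libraries lay above all WT libraries, with a log2 fold change of 1.65 ± 0.24 (adjusted p = 0.00196, edgeR). DNMT1-AID cells, at 5.48, 5.72 and 4.76 CPM, also lay above every WT library (1.10 ± 0.246, adjusted p = 0.013, edgeR), a call lost without WT replicate 2 of day 4 (adjusted p = 0.0626). The compound line held 7.65, 6.46 and 7.47 CPM, again without overlap (1.53 ± 0.231, adjusted p = 2.36e-05, edgeR). Whether these libraries came from the clones of the day 0 libraries used for the choice is not given in the labels, so the last difference is not taken as an independent repeat of it.

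The change of TWIST1 with day is given by line, and whether it differed between lines was not tested. As values, the change minus that in WT was 1.37 ± 0.408 in UHRF1-AID, 0.16 ± 0.302 in the DNMT1-AID line and -0.26 ± 0.276 in the compound line. That of UHRF1-AID cells cannot be told apart from the alignment folder, which WT cells cross between the days and UHRF1-AID cells do not. In UHRF1-AID cells TWIST1 rose by 1.40 ± 0.30 on the log2 scale (adjusted p = 0.00389, edgeR), and every day 4 library lay above every day 0 library. In DNMT1-AID cells, high before auxin, the change was 0.15 ± 0.217 (adjusted p = 0.612, edgeR) and the days overlapped. Given as values with no test, the change was -0.01 in WT and -0.22 ± 0.151 in the compound line, where the day 4 libraries lay just below those of day 0 without overlap. UHRF1-AID and DNMT1-AID cells at day 4 differed by 0.52 ± 0.202 (adjusted p = 0.111, edgeR), every UHRF1-AID library being the higher. By group mean the order was the compound line at day 0, UHRF1-AID and the compound line at day 4, DNMT1-AID at day 4 and day 0, UHRF1-AID at day 0, and WT at day 4 and day 0. Neighbours in this order overlapped except at the 2 steps into and out of the DNMT1-AID groups.

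Over the 24 libraries, among the 5 genes whose log2 CPM followed TWIST1 most closely, of 15698 others, were FOXJ1 (Pearson r = 0.846), SLCO4A1-AS1 (0.843), TNFSF9 (0.843) and GJA1 (0.829). The libraries share lines, days and folders, so these values describe a pattern over the 8 groups. GJA1, the gap junction protein connexin 43, had 0, 0 and 0 counts in WT libraries of day 4, 118, 83 and 96 in UHRF1-AID, 24, 28 and 18 in the DNMT1-AID line and 93, 91 and 57 in libraries of the compound line.

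SNAI1, a direct repressor of CDH1, varied less between groups. At day 4 it was at 7.97, 7.16 and 9.69 CPM in WT, 13.6, 12 and 9.4 in UHRF1-AID, 11.6, 12.8 and 10.4 in the DNMT1-AID line and 8.34, 10.8 and 12.8 in libraries of the compound line. The tagged lines stood above WT by 0.53 ± 0.209, 0.49 ± 0.179 and 0.37 ± 0.189 on the log2 scale, and none of these differences passed the test (adjusted p = 0.11, 0.105 and 0.128, edgeR). Without WT replicate 3 those of DNMT1-AID and the compound line passed (adjusted p = 0.0252 and 0.0466).

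Between the days SNAI1 rose in DNMT1-AID cells, from 8.28, 7.13 and 8.45 CPM (0.54 ± 0.186, adjusted p = 0.039, edgeR). This call was lost when any DNMT1-AID library other than day 0 replicate 3 was left out (adjusted p = 0.0588 to 0.133). In UHRF1-AID cells, from 10.9, 7.26 and 7.68 CPM, the change was 0.47 ± 0.219 (adjusted p = 0.102, edgeR), 0.48 with the replicate block (adjusted p = 0.0483) and 0.68 without day 0 replicate 1 (adjusted p = 0.0409). In WT and the compound line the days overlapped (0.13 ± 0.19 and 0.04 ± 0.167, adjusted p = 0.63 and 0.851).

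SNAI2, the relative of SNAI1 also called SLUG, had between 0 and 13 counts per library and passed the filter in no comparison. Its WT libraries had 1, 4 and 2 counts at day 0 and 13, 11 and 5 at day 4. DNMT1-AID libraries had 0, 1 and 2 counts at day 0 and 0, 0 and 0 at day 4. Against the 29 counts of WT cells, SNAI2 in DNMT1-AID cells at day 4 was at least 9.69-fold lower, with a floor of 3 counts over the group and counting error only. With no filter on low counts, SNAI2 was lower in DNMT1-AID than in WT cells at day 4 (adjusted p = 0.000564, edgeR) and than in UHRF1-AID cells (adjusted p = 0.0173), and higher in WT cells at day 4 than at day 0 (2.26, adjusted p = 0.0245). UHRF1-AID libraries of day 4 had 9, 4 and 6 counts and libraries of the compound line 8, 0 and 5.

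ZEB1, the repressor that miR-200 restrains in epithelial cells, had a smaller group mean at day 4 than at day 0 in all 4 lines. In WT, DNMT1-AID and the compound line it passed the filter on low counts through the day 0 libraries, where it is high. The p of these 3 lines are therefore not taken as support. WT libraries went from 1.81, 1.84 and 0.728 to 0.257, 0.243 and 0.185 CPM, the latter 4, 4 and 3 counts (log2 fold change -2.67 ± 0.507, adjusted p = 0.00428, edgeR). DNMT1-AID libraries went from 0.621, 1.66 and 2.32 to 0.238, 0.183 and 0.265 CPM (-2.72 ± 0.59, adjusted p = 0.00436), and libraries of the compound line from 1.41, 1.64 and 1.75 to 0.627, 0.775 and 0.184 (-1.60 ± 0.44, adjusted p = 0.00358). In these 3 lines every library of day 4 lay below every library of day 0. The days of these lines lie in different alignment folders and those of UHRF1-AID cells in the same folder. The pattern over lines thus cannot be told apart from the folder.

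UHRF1-AID cells went from 4.09, 1.03 and 2.77 to 2.43, 0.578 and 1.18 CPM of ZEB1, with overlap of the days. The change was -0.87 ± 0.57 (adjusted p = 0.232, edgeR), and -0.90 with the replicate block (adjusted p = 0.0304). At day 4 ZEB1 stood above WT by 2.62 ± 0.62 (adjusted p = 0.0187, edgeR) and above DNMT1-AID cells by 2.59 ± 0.624 (adjusted p = 0.0241), in both without overlap. ZEB1 was tested there only because the UHRF1-AID libraries passed the filter and was bound to be high in them, so these p are not taken as support. The first call was lost without WT replicate 1, 2 or 3 (adjusted p = 0.0534 to 0.0724), and the second without UHRF1-AID replicate 1 or 3 or DNMT1-AID replicate 1, 2 or 3 of day 4 (0.0618 to 0.0967). The change with day in UHRF1-AID cells minus that in WT was 1.76 ± 0.923 (adjusted p = 0.332, edgeR), so the 2 changes were not shown to differ.

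VIM, the intermediate filament of mesenchymal cells, went between the days in WT cells from 3.57, 2.5 and 3.25 to 1.22, 0.788 and 0.556 CPM (log2 fold change -1.88 ± 0.322, adjusted p = 0.00276, edgeR). Not every WT library of day 4 reached the minimum of the filter. VIM was thus tested here through the day 0 libraries, where it is high, and this p is not taken as support. The compound line held 5.22, 6.26 and 7.19 CPM at day 0 and 3.89, 6.33 and 10.8 at day 4, with overlap (0.16 ± 0.326, adjusted p = 0.685). The change in this line minus that in WT, which uses the same WT libraries of day 4, was 1.99 ± 0.493 (adjusted p = 0.0137, edgeR). It did not pass with all 24 libraries in 1 fit (adjusted p = 0.12). The same difference was 1.19 ± 0.859 in UHRF1-AID and 1.11 ± 0.585 in DNMT1-AID cells (adjusted p = 0.503 and 0.435).

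At day 4 VIM reached the minimum of the filter in every library of the tagged lines and in 2 of the 3 WT libraries. It was thus tested partly through the groups where it is high, so the p against WT at day 4 are not taken as support. Every library of the compound line held more VIM than any WT library (3.03 ± 0.427, adjusted p = 0.000197, edgeR). UHRF1-AID libraries, at 6.25, 1.89 and 3.52 CPM, also lay above WT (2.22 ± 0.484, adjusted p = 0.0143), a call lost without WT replicate 2 (adjusted p = 0.0669). DNMT1-AID libraries, at 1.73, 0.975 and 2.98 CPM, overlapped those of WT (1.14 ± 0.454, adjusted p = 0.139). UHRF1-AID and DNMT1-AID cells differed by 1.05 ± 0.491 (adjusted p = 0.179), which passed without UHRF1-AID replicate 2 (adjusted p = 0.0294). At day 0 UHRF1-AID libraries ranged from 1.91 to 11.3 CPM and overlapped WT (1.02 ± 0.564, adjusted p = 0.942), and libraries of the compound line lay above WT without overlap in the contrast given no test. Beside these values, the 10 fibroblast markers summed at day 4 to 3.34 to 9.01 CPM in WT, 9.83 to 15.9 in UHRF1-AID, 9.79 to 14.1 in the DNMT1-AID line and 25 to 27.4 in libraries of the compound line. Without COL1A1 and THY1 the other 8 summed to at most 1.72 CPM in any library, and the part of these markers in the VIM values was not tested.

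FN1, fibronectin of the extracellular matrix, moved in opposite directions in 2 lines between the days. DNMT1-AID libraries rose from 2.38, 1.91 and 4.1 to 6.19, 7.07 and 5.29 CPM (log2 fold change 1.13 ± 0.308, adjusted p = 0.0139, edgeR), a call lost without day 0 replicate 1 (adjusted p = 0.0538) or day 4 replicate 2 (0.0531). Libraries of the compound line fell from 10.8, 8.4 and 11 to 5.14, 6.2 and 4.84 CPM (-0.91 ± 0.169, adjusted p = 0.000124), not so with all 24 libraries in 1 fit (adjusted p = 0.0571). Neither pair of groups overlapped. WT libraries held 8.31, 8.84 and 3.02 CPM at day 0 and 2.19, 5.03 and 5.68 at day 4 and overlapped (-0.66 ± 0.496, adjusted p = 0.336), and their fall passed without day 0 replicate 3 (adjusted p = 0.0463). UHRF1-AID libraries held 6.54, 14.2 and 10.3 and then 7.21, 5.31 and 12.1 CPM (-0.29 ± 0.347, adjusted p = 0.512).

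FN1 is the gene of the 10, after ZEB2, with the most exon sequence, 17315 bases. The 3 libraries of day 0 with the least FN1, WT replicate 3 and DNMT1-AID replicates 1 and 2, were also those in which long genes stood lowest relative to the other libraries of that day (Spearman rho with exon length over 15699 genes -0.261, -0.266 and -0.23). With the length trend removed, the changes with day were 1.17 in DNMT1-AID (adjusted p = 0.0045, edgeR) and -0.66 in the compound line (0.00236). The change in DNMT1-AID cells minus that in WT, 1.80 ± 0.617, did not pass (adjusted p = 0.277, edgeR), and passed without WT day 0 replicate 3 (adjusted p = 0.0472). In the compound line the change minus that in WT was -0.28 ± 0.549 and in UHRF1-AID cells 0.34 ± 0.675 (adjusted p = 0.808 and 0.845, edgeR). The fall in the compound line was thus not shown to differ from the change in WT. At day 4 FN1 overlapped WT in all 3 lines (0.97 ± 0.405, 0.53 ± 0.297 and 0.33 ± 0.285, adjusted p = 0.135, 0.30 and 0.388).

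CDH1, E-cadherin, rose between the days in the 3 tagged lines. UHRF1-AID libraries went from 43.5, 91.4 and 69.1 to 100.4, 165 and 155 CPM (log2 fold change 1.08 ± 0.278, adjusted p = 0.0117, edgeR). DNMT1-AID libraries went from 80.8, 81.6 and 68.5 to 161, 140.1 and 138 CPM (0.92 ± 0.122, adjusted p = 0.00025), and libraries of the compound line from 85.8, 70.3 and 68.9 to 141, 135 and 131 (0.85 ± 0.0858, adjusted p = 1.02e-07). In each line all libraries of day 4 lay above all of day 0. The rise in UHRF1-AID cells was lost without day 4 replicate 2 (adjusted p = 0.101). WT cells, which received auxin too, went from 96.5, 105 and 81.4 to 98.5, 123 and 118 CPM and overlapped (0.24 ± 0.139, adjusted p = 0.203).

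The change of CDH1 beyond that of WT passed in the compound line (0.56 ± 0.173, adjusted p = 0.0396, edgeR) and not in UHRF1-AID (0.80 ± 0.355, adjusted p = 0.253) or DNMT1-AID cells (0.68 ± 0.182, adjusted p = 0.173), the last passing without WT day 0 replicate 3 (adjusted p = 0.0401). The call in the compound line was lost without WT replicate 2 of day 0, WT replicate 1, 2 or 3 of day 4, or its own replicates 2 or 3 of day 0 and 1 or 2 of day 4 (adjusted p = 0.0514 to 0.108), and with all 24 libraries in 1 fit (adjusted p = 0.181). At day 4 CDH1 was higher than in WT in DNMT1-AID (0.38 ± 0.105, adjusted p = 0.0411, edgeR) and the compound line (0.27 ± 0.0989, adjusted p = 0.0375), both without overlap. The first was lost without WT replicates 1 or 2 or DNMT1-AID replicates 1 or 3 (adjusted p up to 0.161) and the second without WT replicate 1 or compound line replicates 1 or 2 (up to 0.161). With all 24 libraries in 1 fit the 2 differences had adjusted p of 0.29 and 0.336. The second was also lost with DESeq2 (adjusted p = 0.0574) and with no filter on low counts (adjusted p = 0.0537). UHRF1-AID cells overlapped WT (0.34 ± 0.186, adjusted p = 0.232), and were higher without UHRF1-AID replicate 1 (adjusted p = 0.021).

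EPCAM, the most abundant of the 10 genes per kb, had group means between 384 ± 57.3 CPM in UHRF1-AID cells at day 0 and 552 ± 13 in DNMT1-AID cells at day 4. At day 4 the differences from WT were -0.20 ± 0.185, 0.03 ± 0.0952 and -0.10 ± 0.101 on the log2 scale in UHRF1-AID, DNMT1-AID and the compound line (adjusted p = 0.491, 0.871 and 0.469, edgeR). Libraries of all 3 lines overlapped those of WT. Without UHRF1-AID replicate 2 of day 4, EPCAM was lower in UHRF1-AID cells than in WT (-0.46, adjusted p = 0.0231) and DNMT1-AID cells (-0.48, adjusted p = 0.0105). The changes with day were 0.19 ± 0.124 in WT, 0.30 ± 0.195 in UHRF1-AID, 0.05 ± 0.115 in the DNMT1-AID line and 0.05 ± 0.0772 in the compound line. The first passed without WT day 0 replicate 3 (adjusted p = 0.0285) and the second without UHRF1-AID day 4 replicate 1 (0.0432).

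Counted over the tested genes with every library of both days at the minimum of the filter, 0 of 4 changed between the days in WT cells by edgeR, where 35.6% of all genes did and 11.9% by over 2-fold. None of the 4 had an unadjusted p under 0.05 and DESeq2 called none. In UHRF1-AID cells 2 of 7 changed in the fit without pairing (TWIST1 and CDH1, both higher and by over 2-fold), against 49.4% and 21.9% of all genes. With the replicate block, the fit that holds the pairing of this line, 4 of 7 changed, SNAI1 upwards and ZEB1 downwards besides. Over all genes, 3204 changed by over 2-fold with the block and 3149 without it. In DNMT1-AID cells 3 of 6 changed (SNAI1, CDH1 and FN1, all higher), FN1 by over 2-fold, against 40.4% and 15.3%. In the compound line 2 of 5 changed, CDH1 upwards and FN1 downwards, neither by over 2-fold, against 67.8% and 26.6%.

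Counted in the same way, the change with day differed from that of WT for 0 of 5 genes in UHRF1-AID cells by edgeR, where 3.62% of all genes differed and 2.27% by over 2-fold, and for 0 of 5 in DNMT1-AID cells, against 0.153% and 0.139%. CDH1 had an unadjusted p under 0.05 in both and FN1 in the second, and DESeq2 called none of these 5 genes in either line. In the compound line 1 of 4 differed (CDH1), not by over 2-fold, against 15.3% and 5.41%. Between UHRF1-AID and DNMT1-AID cells at day 4, 0 of 6 differed by edgeR, against 13.9% and 5.31%. TWIST1 had an unadjusted p under 0.05 and DESeq2 called none of the 6.

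On both days replicate 1 of UHRF1-AID cells, chosen after its values were seen and given with no test, had the highest ZEB1 (4.09 CPM at day 0 and 2.43 at day 4) and VIM (11.3 and 6.25) of its group and the lowest CDH1 (43.5 and 100.4) and EPCAM (333 and 345). Its SNAI1 was also the highest on both days (10.9 and 13.6 CPM). The mesenchymal gene FN1 (6.54 CPM) and the regulator TWIST1 (1.6 CPM) went the other way at day 0, each the lowest of the group. At day 4 its TWIST1 was the highest (8.73 CPM) and its FN1 (7.21 CPM) lay between those of the other replicates. Without replicate 1 of day 4, the excess over WT at that time was 1.52 for TWIST1 (adjusted p = 0.00352, edgeR), 1.94 for ZEB1 (0.050) and 1.68 for VIM (0.0241). The change of VIM with day in this line was -0.64 ± 0.612 (adjusted p = 0.414, edgeR), and 0.0898 without replicate 1 of day 0 (adjusted p = 0.911).

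Other genes of TGF-beta and EMT pathways were compared with WT at day 4 in 5 lists. TGF-beta and BMP ligands induce EMT in many epithelia and pattern the intestinal crypt. Of 30 genes of TGF-beta signalling, 25 were tested in each line, with 6 higher and 1 lower in UHRF1-AID, 2 higher and 0 lower in the DNMT1-AID line and 8 higher and 3 lower in the compound line, where 17.4%, 7.95% and 38.2% of all genes tested differed. The medians of the list were 0.166, 0.11 and 0.139 on the log2 scale, against 0.0267, 0.00167 and 0.0157 over all genes tested. SMAD7, an inhibitor of the receptors, was at 2.37 ± 0.641 CPM in WT, 7.19 ± 2.27 in UHRF1-AID (1.63 ± 0.315, adjusted p = 0.00742, edgeR) and 6.9 ± 0.981 in the compound line (1.54 ± 0.244, adjusted p = 4.14e-05). The receptor BMPR2 was higher in UHRF1-AID cells (54.6 ± 7.01 against 25.8 ± 1.47 CPM, adjusted p = 0.000851) and the ligand BMP4 in the compound line (79.8 ± 8.72 against 32.6 ± 3.95 CPM, adjusted p = 2.46e-08).

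Of 34 genes of epithelial junctions and surfaces, 31, 31 and 32 were tested in the 3 lines, with 0 higher and 2 lower in UHRF1-AID, 2 higher and 0 lower in the DNMT1-AID line and 5 higher and 6 lower in the compound line (medians 0.0525, 0.17 and 0.0382), beside 17.4%, 7.95% and 38.2% of all genes. Among those with every library of both groups at the minimum of the filter, 0 were higher and 2 lower of 30, 2 and 0 of 30, and 4 and 6 of 30. MAL2, a membrane protein of apical transport, was lower in UHRF1-AID cells (141 ± 56.3 against 325 ± 34.1 CPM, adjusted p = 0.0333, edgeR). The apical mucin MUC1 was at 1.05 ± 0.361 CPM in the compound line against 0.291 ± 0.31 in WT (adjusted p = 0.0352). It had 14 counts over the WT libraries together and 50 over those of the compound line. MUC1 thus passed the filter on low counts through the compound line, where it is high, and this p is not taken as support. Both calls were lost when single libraries were left out, MAL2 without WT replicate 1 or 2 or UHRF1-AID replicate 3 (adjusted p up to 0.0902) and MUC1 without replicate 1 or 2 of either line (up to 0.178).

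Of 24 epithelial regulators, 19, 18 and 20 were tested, with 3 higher and 1 lower in UHRF1-AID, 2 higher and 1 lower in the DNMT1-AID line and 4 higher and 9 lower in the compound line (medians -0.344, 0.0623 and -0.355), beside 17.4%, 7.95% and 38.2% of all genes. Among those with every library of both groups at the minimum of the filter, 2 were higher and 1 lower of 17 in UHRF1-AID, 2 and 1 of 18 in the DNMT1-AID line and 2 and 8 of 17 in the compound line. EHF, an ETS factor of epithelia, was at 60.4, 64.2 and 62.4 CPM in WT libraries, lower in UHRF1-AID (18.3, 10.6 and 16.2 CPM, -2.01 ± 0.189, adjusted p = 0.000169, edgeR) and lower in libraries of the compound line (6.02, 20.9 and 8.39 CPM, -2.40 ± 0.514, adjusted p = 0.025). The second call was lost without WT replicate 1, 2 or 3 or compound line replicate 3 (adjusted p up to 0.0837). The gut factors CDX1 and GATA4 had 0 counts in the WT libraries of day 4. CDX1 had 55 counts over the 3 UHRF1-AID libraries and 88 over those of the compound line, at least 14.2-fold and 29.6-fold higher against a floor of 3 counts over the group. GATA4 had 95 in the compound line, at least 32-fold higher.

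CDX2, the intestinal homeobox factor, was higher in the compound line (53.9 ± 7.58 against 21.6 ± 0.705 CPM, adjusted p = 3.33e-08, edgeR). In DNMT1-AID cells MIR200CHG, the host transcript of miR-200c and miR-141, was higher (4.39 ± 0.927 against 2.13 ± 0.352 CPM, adjusted p = 0.0285) and the pioneer factor FOXA1 lower (1.16 ± 0.33 against 2.76 ± 0.184 CPM, adjusted p = 0.0308). Both of these were lost without WT replicate 1 or 2 or DNMT1-AID replicate 2 or 3 (adjusted p up to 0.138 and 0.111).

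Of 26 regulators tied to mesenchymal states, 18, 17 and 18 were tested, with 2 higher and 1 lower in UHRF1-AID, 1 higher and 2 lower in the DNMT1-AID line and 5 higher and 4 lower in the compound line (medians 0.0517, 0.0444 and 0.152), beside 17.4%, 7.95% and 38.2% of all genes. SOX4 was higher in UHRF1-AID cells (61.9 ± 31.1 against 21.4 ± 4.82 CPM, adjusted p = 0.0428, edgeR), lost without WT replicate 1 or 2 or UHRF1-AID replicate 1 or 3 (up to 0.187). SOX9, a factor of intestinal crypts and of cartilage, was higher in the compound line (146 ± 12.6 against 73.3 ± 27.7 CPM, adjusted p = 0.0453), lost without WT replicate 1 or 2 or any replicate of that line (up to 0.153). The chromatin factor HMGA2 was lower in the compound line, at 45.8, 50.1 and 40.4 against 159.6, 179.6 and 176 CPM (-1.91 ± 0.104, adjusted p = 9.85e-12), as was ETS1, at 5.88 ± 0.826 against 17.8 ± 1.58 CPM (adjusted p = 2.44e-07).

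**Figure D3:**
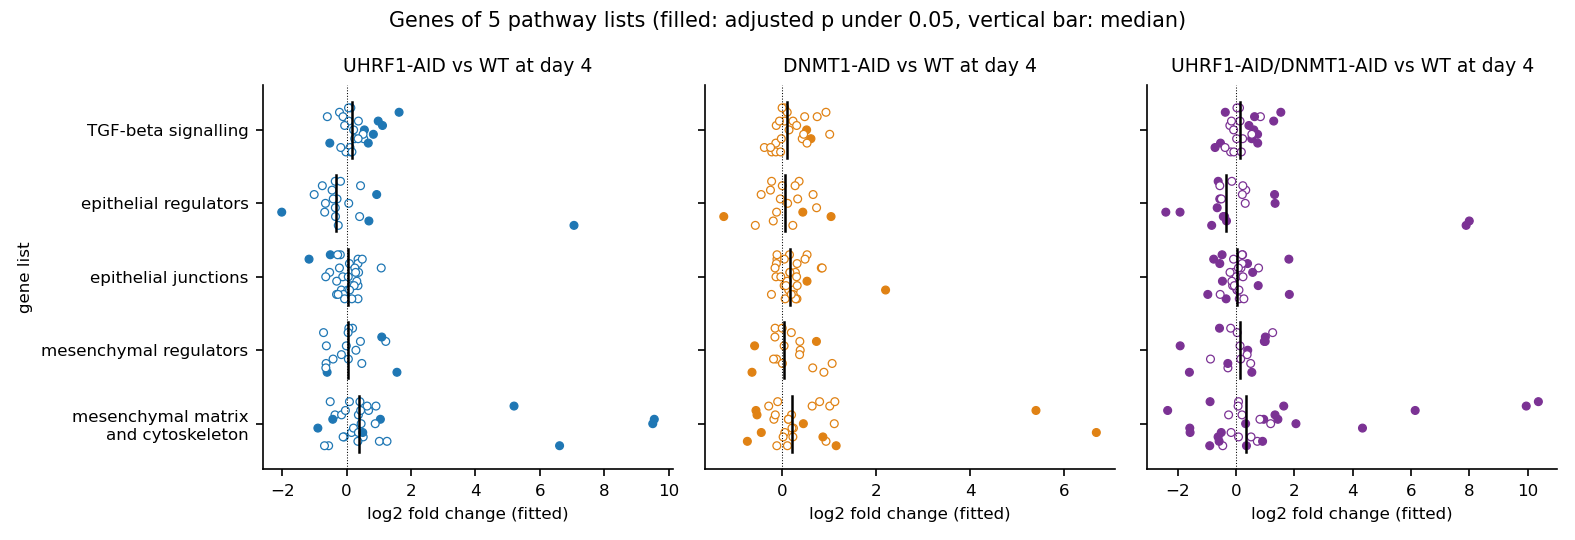
Fitted log2 fold change (horizontal axes) of each tested gene in 5 lists (vertical axis) for the 3 tagged lines against WT at day 4, filled at an adjusted p under 0.05, with a bar at the median of the list. The medians lie between -0.355 and 0.390, and the points furthest to the right include SPARC and THY1, whose WT libraries had 1 count or none, so that their fitted values depend on the prior count of the fit.

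Of 50 genes of mesenchymal matrix and cytoskeleton, 32, 29 and 31 were tested, with 6 higher and 2 lower in UHRF1-AID, 5 higher and 4 lower in the DNMT1-AID line and 12 higher and 8 lower in the compound line (medians 0.39, 0.203 and 0.333), beside 17.4%, 7.95% and 38.2% of all genes. Among those with every library of both groups at the minimum of the filter, 2 were higher and 2 lower of 25 in UHRF1-AID, 3 and 4 of 26 in the DNMT1-AID line and 7 and 8 of 25 in the compound line. SPARC, a secreted glycoprotein of remodelling matrix whose promoter is printed above, had 1, 0 and 0 counts in the WT libraries of day 4. It had 417, 258 and 604 counts in UHRF1-AID, 30, 35 and 74 in the DNMT1-AID line and 492, 545 and 760 in libraries of the compound line, all far above WT. The ratios of pooled CPM to WT were 994 (exact 95% interval 178 to 39300), 139 (exact 95% interval 24.5 to 5520) and 1810 (exact 95% interval 325 to 71700), with intervals for counting error only. The WT libraries did not reach the minimum of the filter on low counts, so SPARC passed it through the tagged lines alone and was bound to be high there. For this reason no test of SPARC is given. Before auxin SPARC had 6, 8 and 12 counts in WT and 62, 75 and 419 in libraries of the compound line.

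COL6A3, a chain of collagen VI, had 3, 1 and 2 counts in WT libraries of day 4. It was at 12.6 ± 7.81 CPM in UHRF1-AID, 5.57 ± 1.9 CPM in DNMT1-AID and 9.31 ± 1.54 CPM in the compound line. The fitted log2 fold changes were 6.61 ± 0.664, 5.40 ± 0.462 and 6.14 ± 0.367. Like SPARC, COL6A3 passed the filter through the tagged lines alone, so no test of it is given. THY1, a surface glycoprotein of fibroblasts, had 0, 0 and 0 counts in WT, 114, 100 and 88 in UHRF1-AID, 2, 0 and 7 in the DNMT1-AID line and 136, 130 and 101 in libraries of the compound line. Against a floor of 3 counts over the group it was at least 78.2-fold higher in UHRF1-AID and at least 124-fold higher in the compound line. The protease urokinase, PLAU, was lower in the compound line, at 10.8, 15.3 and 13.5 against 41.9, 38.9 and 38.1 CPM (-1.58 ± 0.137, adjusted p = 1.53e-08). The mesenchymal matrix list thus held genes on both sides of WT in the compound line.

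**Figure D4:**
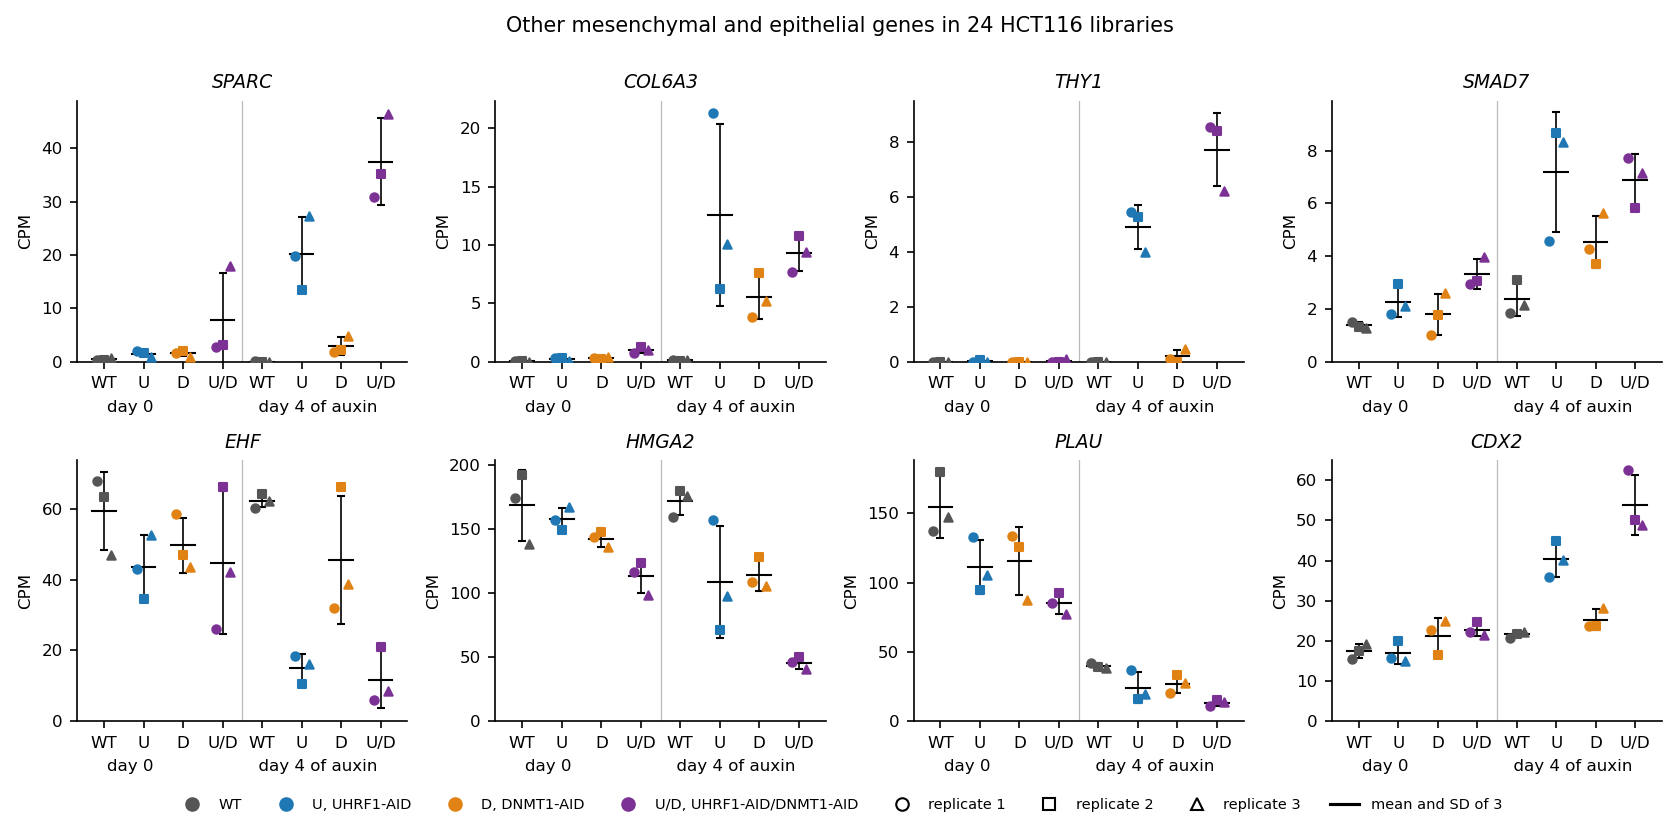
CPM of 8 genes outside the group of 10 (vertical axes, from 0) in each of 24 libraries by line and day, with the mean and SD of 3. In the libraries of day 4, SPARC, COL6A3 and THY1 lie near 0 in WT and apart from it in UHRF1-AID and the compound line, while EHF, HMGA2 and PLAU lie lower in the compound line than in WT cells.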

How the data were processed

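RNA-seq of 24 HCT116 libraries was used, from 4 lines at day 0 and day 4 with 3 libraries each, grouped by the labels. The authors deposited raw read counts per gene, 1 table per library, and the submitters' processing notes name STAR, featureCounts and hg38. The counts were not normalized by the authors, and 92 ERCC sequences were left out here. Counts were tested with edgeR 4.0.16 in R 4.3.3 (filterByExpr, TMM, robust quasi-likelihood fit on the libraries compared, Benjamini-Hochberg over all genes tested), at an adjusted p under 0.05 and, where said, a log2 fold change over 1 in size. Levels are CPM with TMM factors over the 24 libraries. DESeq2 1.42.0, other filters and scaling, all libraries in 1 fit, a replicate block, a length trend and each library left out were alternatives. The step was tested on simulated data. Named genes outside the 10 are up to 2 per list and direction with the smallest p among those differing by over 2-fold from WT at day 4 in each line, and the 5 most correlated with TWIST1, with some of these genes not reported here. The 10 genes and the lists were chosen with earlier results of these data known. Same-numbered libraries deviated together in UHRF1-AID cells between the days (r = 0.288, 0.176 and 0.156), which were taken as paired. The fit reported does not hold this pairing, and the replicate block is the alternative that does. In the compound line each number also matched best with itself between the days, but more weakly (r = 0.0871 to 0.0971), and was not taken as paired. In no other comparison was this so for every number. No pair of libraries was a duplicate by chi-square.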

Additional observations from a re-analysis of the deposited data

Results flagged for a closer look

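The change with day differed between the compound line and WT cells by the test of the difference itself for CDH1, at 0.56 on the log2 scale, and for VIM, at 1.99. With all 24 libraries in 1 fit neither passed (adjusted p = 0.181 and 0.12), and that of CDH1 was also lost with 8 of the 12 libraries when left out singly. For VIM the change was -1.88 on the log2 scale in WT and 0.16 in the compound line, and not every WT library of day 4 reached the minimum of the filter. For CDH1 the changes were 0.24 in WT and 0.85 in the compound line. The alignment folder and the day cannot be told apart within either line, and both lines cross it in the same way. Counts on ERCC control RNAs, outside the genes compared, were found in 9 libraries, all of day 4, and in none of the 12 libraries of day 0.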

How the results depend on the processing

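The counts below are of the genes with a test, an adjusted p under 0.05 and a difference over 2-fold, ZEB1 and VIM included where they passed the filter through 1 group. The contrast that chose the group and TWIST1 with its libraries have no test and are in no count. With DESeq2 the count went from 1 to 2 for DNMT1-AID against WT at day 4 and from 1 to 2 between UHRF1-AID and DNMT1-AID cells. Over all genes these counts went from 349 to 404 and from 748 to 880. With all 24 libraries in 1 fit the count went from 1 to 0 for the change in the compound line minus that in WT, and from 813 to 701 over all genes. With at least 10 counts in every library it went from 3 to 1 for UHRF1-AID and from 2 to 1 for the compound line against WT at day 4, from 2 to 0 between the days in WT, 2 to 1 in DNMT1-AID and 1 to 0 in the compound line, and from 1 to 0 both for the last change minus that in WT and between the single lines, since ZEB1 and, with WT libraries of day 4, VIM were then not tested. Over all genes, that setting took the days from 1618 to 1304 in WT, 2119 to 1635 in DNMT1-AID and 3903 to 2595 in the compound line. It took the change of the compound line minus that in WT from 813 to 442, and the single lines from 748 to 497. With no filter the count was 2 for DNMT1-AID at day 4, 1 for its change minus that in WT and 3 between the single lines. Over all genes these were 561, 595 and 1071. With no minimum fold change the count was 2 for DNMT1-AID at day 4, 4 and 3 between the days in DNMT1-AID and the compound line, and 2 for the latter minus WT. Over all genes these were 1080, 5590, 9960 and 2292. With 1 library left out at a time the counts ran from 1 to 3, 0 to 2 and 2 to 2 (UHRF1-AID, DNMT1-AID and the compound line, day 4), 2 to 4, 1 to 2, 0 to 2 and 1 to 2 (days in WT, UHRF1-AID, DNMT1-AID and the compound line), 0 to 1 (DNMT1-AID minus WT) and 0 to 2 (between the single lines). Numbers over all genes with 1 library left out are not reported here. The cause of the moves between settings was otherwise not tested. The log2 fold changes that changed sign passed the test neither in the fit reported nor in the setting that turned them. With the length trend removed, SNAI1 (DNMT1-AID against WT at day 0) was at -0.0389, SNAI1 (the compound line between the days) was at -0.0958 and EPCAM (the compound line between the days) was at -0.0194. With the replicate block, ZEB1 (DNMT1-AID against WT at day 0) was at -0.0389, VIM (DNMT1-AID against WT at day 0) was at -0.0411 and SNAI1 (UHRF1-AID against DNMT1-AID at day 4) was at -0.0021. With no filter, SNAI1 (the compound line between the days) was at -0.0055. With RLE scaling, SNAI1 (UHRF1-AID against DNMT1-AID at day 4) was at -0.0036. With DESeq2, SNAI1 (UHRF1-AID against DNMT1-AID at day 4) was at -0.0053. With 1 library left out, SNAI1 (DNMT1-AID against WT at day 0) ran from -0.0131 to 0.1955, ZEB1 (DNMT1-AID against WT at day 0) from -0.4066 to 0.4159, VIM (DNMT1-AID against WT at day 0) from -0.3018 to 0.2787, EPCAM (DNMT1-AID against WT at day 4) from -0.0036 to 0.102, EPCAM (DNMT1-AID between the days) from -0.0206 to 0.0938, SNAI1 (the compound line between the days) from -0.1117 to 0.1708, VIM (the compound line between the days) from -0.2937 to 0.4298, EPCAM (the compound line between the days) from -0.0302 to 0.0996, FN1 (the change of UHRF1-AID minus WT) from -0.05 to 0.6965, EPCAM (the change of UHRF1-AID minus WT) from -0.1668 to 0.2454, ZEB1 (the change of DNMT1-AID minus WT) from -0.4361 to 0.3813, SNAI1 (the change of the compound line minus WT) from -0.2741 to 0.0093, FN1 (the change of the compound line minus WT) from -0.5844 to 0.0824, SNAI1 (UHRF1-AID against DNMT1-AID at day 4) from -0.1151 to 0.1416 and CDH1 (UHRF1-AID against DNMT1-AID at day 4) from -0.1904 to 0.1356. The change of VIM with day in UHRF1-AID cells was -0.64 and, with 1 library left out, ran from -1.17 to 0.0898, the latter without day 0 replicate 1. The replicate block moved no such count by over 1.5 times, and in UHRF1-AID cells, where the numbers pair, it changed the calls of SNAI1 (adjusted p = 0.0483) and ZEB1 (0.0304) between the days and no other. Elsewhere, where the numbers were not taken as paired, the block took the adjusted p of CDH1 in DNMT1-AID cells against WT at day 4 to 0.057, that of SNAI1 between the days in DNMT1-AID cells to 0.0955 and that of the CDH1 change in the compound line minus that in WT to 0.059. In the compound line same-numbered libraries of the 2 days correlated at 0.0871 to 0.0971, each best with its own number, a hint from the data only. Over all genes, the number that differed from WT at day 4 by over 2-fold was 975 in UHRF1-AID and 1663 in the compound line, against 456 and 700 with at least 10 counts in every library and 1632 and 2535 with no filter. The corresponding numbers for the change with day in DNMT1-AID cells minus that in WT were 20, 11 and 595. Genes with few counts, SNAI2, ZEB2, CDH2 and ZEB1 at day 4 among them, are limited by depth.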

Other observations

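Of 34 genes of epithelial junctions and surfaces, 13 rose and 1 fell of 31 tested in WT cells, 19 rose and 2 fell of 31 in UHRF1-AID, 19 rose and 0 fell of 32 in DNMT1-AID, and 20 rose and 7 fell of 32 in the compound line, where 35.6%, 49.4%, 40.4% and 67.8% of all genes changed. The list medians were 0.315, 0.454, 0.496 and 0.399 on the log2 scale, against -0.0289, 0.0176, -0.00772 and 0.0182 over all genes tested. Of 50 genes of mesenchymal matrix and cytoskeleton, 9 rose and 6 fell of 28 in WT, 15 and 4 of 32 in UHRF1-AID, 15 and 3 of 30 in DNMT1-AID, and 16 and 7 of 32 in the compound line, beside the same shares of all genes. Where every library of both days reached the minimum of the filter, 13 junction genes rose and 1 fell of 30 in WT, 18 and 2 of 29 in UHRF1-AID, 19 and 0 of 30 in DNMT1-AID and 20 and 7 of 30 in the compound line. Of such matrix genes 8 rose and 6 fell of 25, 11 and 3 of 27, 13 and 3 of 26, and 12 and 7 of 27. The lines were not compared by a test of the difference between these counts.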
